A study of Mus musculus with 6 samples.

Results

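Cells make cholesterol from acetyl-CoA through the mevalonate pathway. Its early and middle steps build isoprene units from acetyl-CoA by way of HMG-CoA and mevalonate, join them to farnesyl diphosphate and then to squalene, and oxidise squalene. Later enzymes close the sterol rings and finish cholesterol. Myelinating oligodendrocytes make much of the cholesterol of their own membranes, and transcription of the pathway's genes is known to be driven by the SREBP-2 transcription factor when sterols are low in the endoplasmic reticulum. The 9 genes described here encode enzymes of the steps from acetyl-CoA to squalene epoxide, namely *Acat2*, *Hmgcs1*, *Mvk*, *Pmvk*, *Mvd*, *Idi1*, *Fdps*, *Fdft1* and *Sqle*. They were taken by gene name from a table of 55492 mouse genes, and all 9 had a single row and were abundant enough to be tested.

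The samples were O4-microbead-purified cells, which carry a surface marker of the oligodendrocyte lineage, from dissociated whole brains of mice at postnatal day 16. RNA of 3 WT and 3 Npc1-/- mice was sequenced as poly(A)-selected libraries. Npc1-/- mice lack NPC1, the late endosomal and lysosomal protein that exports cholesterol taken up by the cell, and the comparison asks how cells that cannot mobilise this cholesterol differ from WT cells. The methods state that Npc1-/- mice carried the nih allele of *Npc1* and were F1 hybrids from a cross of the BALB/cJ and C57BL6/J backgrounds, and that littermates were genotyped. The allele is inherited through the germline, so every cell of the mouse lacks the protein and not just the purified cells. In bulk RNA, fewer cells of a type and less RNA per cell cannot be told apart.

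Depth, read from the steps of the deposited FPKM in genes with a single transcript, was 40250000 to 50250000 fragments per library. *Npc1* was 45.5 to 53.3 TPM (transcript abundance per length, with one fixed total for all samples) in WT and 3.16 to 4.42 TPM in Npc1-/- samples, a log2 fold change of −3.17 (limma adjusted p = 0.000398). The size factors that bring the bulk of genes to a common level were 1.04 to 1.295 in WT and 0.727 to 1.10 in Npc1-/- samples, and the 10 most abundant genes held 37.5% to 42.5% and 40.9% to 50.2% of TPM. Npc1-/- replicate 3 was the single library with *Xist* above 0.01 TPM, at 15.6 TPM, and was at 0 for the Y-linked *Ddx3y*, so the groups are not matched for sex. All 12 oligodendrocyte lineage markers were detected in every sample, and so were all markers of neurons, astrocytes, microglia and endothelium.

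The sequences just upstream of the start sites are shown because sterol control of the pathway's genes is known to act through promoter elements. SREBP-2 is known to bind sterol regulatory elements, usually with NF-Y at nearby CCAAT boxes and SP1 at GC boxes. RefSeq promoter windows on GRCm38.p6, from 250 bases before to 50 bases after the start, were at hand for 6 members (*Acat2*, *Hmgcs1*, *Mvk*, *Pmvk*, *Mvd* and *Idi1*). Both strands were searched for TCACNCCAC, a sterol regulatory element in which N is any base, for CCAAT and for GGGCGG, and no matches of different motifs overlapped. The element was found in 1 of the 6 members with a window. This was *Hmgcs1*, 137 bases before the start, and 1.24% of 32851 mouse promoter windows hold the element. CCAAT was found in 5 of the 6 members with a window, against 37.4% of all windows. *Hmgcs1* had 4 matches, *Mvk* 5, *Mvd* 2, *Idi1* 2, *Pmvk* 1 (in 1 of its 2 windows) and *Acat2* 0, and 11.7% of all windows have at least 2. GGGCGG was in 5 members, and 35.7% of all windows hold it. The 250 bases upstream of the start are printed 5′ to 3′ for the 4 members with at least 2 CCAAT matches, with matches to CCAAT (or ATTGG on the other strand) and to the sterol regulatory element in capitals.

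Hmgcs1, chr13:119690101-119690350, forward strand: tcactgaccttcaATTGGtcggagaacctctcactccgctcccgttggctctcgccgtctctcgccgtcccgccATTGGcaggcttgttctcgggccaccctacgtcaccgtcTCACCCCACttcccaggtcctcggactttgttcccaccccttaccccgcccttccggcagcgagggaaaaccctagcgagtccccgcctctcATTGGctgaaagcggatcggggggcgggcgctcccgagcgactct

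Mvk, chr5:114444019-114444268, forward strand: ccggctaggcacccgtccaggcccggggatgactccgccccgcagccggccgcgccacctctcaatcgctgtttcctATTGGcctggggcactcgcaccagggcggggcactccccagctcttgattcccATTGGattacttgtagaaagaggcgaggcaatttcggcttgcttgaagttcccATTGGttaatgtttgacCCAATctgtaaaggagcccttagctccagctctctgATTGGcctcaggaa

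Mvd, chr8:122443423-122443672, reverse strand: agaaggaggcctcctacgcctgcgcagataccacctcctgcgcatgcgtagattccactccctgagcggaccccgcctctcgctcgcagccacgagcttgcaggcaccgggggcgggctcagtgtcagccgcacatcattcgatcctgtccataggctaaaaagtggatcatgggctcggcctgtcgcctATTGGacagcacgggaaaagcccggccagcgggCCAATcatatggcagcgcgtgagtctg

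Idi1, chr13:8885356-8885605, forward strand: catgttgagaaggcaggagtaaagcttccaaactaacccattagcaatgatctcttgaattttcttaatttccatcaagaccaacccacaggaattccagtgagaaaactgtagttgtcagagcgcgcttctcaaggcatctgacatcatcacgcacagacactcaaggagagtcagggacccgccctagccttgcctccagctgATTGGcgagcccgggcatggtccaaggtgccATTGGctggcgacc

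The capitals in the *Hmgcs1* sequence mark 3 CCAAT matches and, between the second and the third, the sterol regulatory element. Its other CCAAT match lies after the start. In *Idi1* both CCAAT matches lie within 45 bases of the start, and in *Mvd* within 60. A match is a string of letters in a window and was not tested as a binding site in these cells.

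In order of level the 9 transcripts spanned a wide range, and the order was similar in both genotypes. The values below are TPM divided by the sample's size factor, called scaled TPM, which corrects for transcript length and so can be compared between genes. In WT samples *Hmgcs1* was highest with a mean of 550 ± 34.9 (SD, n = 3), followed by *Fdps* with 212 ± 14.2. *Idi1* (96.2 ± 8.79) and *Pmvk* (94.5 ± 4.46) had overlapping ranges, as did *Mvd* (62.0 ± 7.73) and *Sqle* (54.5 ± 4.85) further down. *Acat2* (81.4 ± 5.92) lay between these pairs, and *Mvk* (46.4 ± 2.90) and *Fdft1* (35.4 ± 2.17) were lowest, with ranges separate from each other. In Npc1-/- samples the order was the same except that the mean of *Pmvk* lay above that of *Idi1*, again with overlapping ranges. There the ranges of *Acat2*, *Mvd* and *Sqle* also ran into each other, and so did those of *Mvk* and *Fdft1*. *Hmgcs1* alone made up a large part of the summed scaled TPM of the 9 genes, which was 1180 to 1314 in WT and 1377 to 1596 in Npc1-/- samples.

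**Figure D1:**
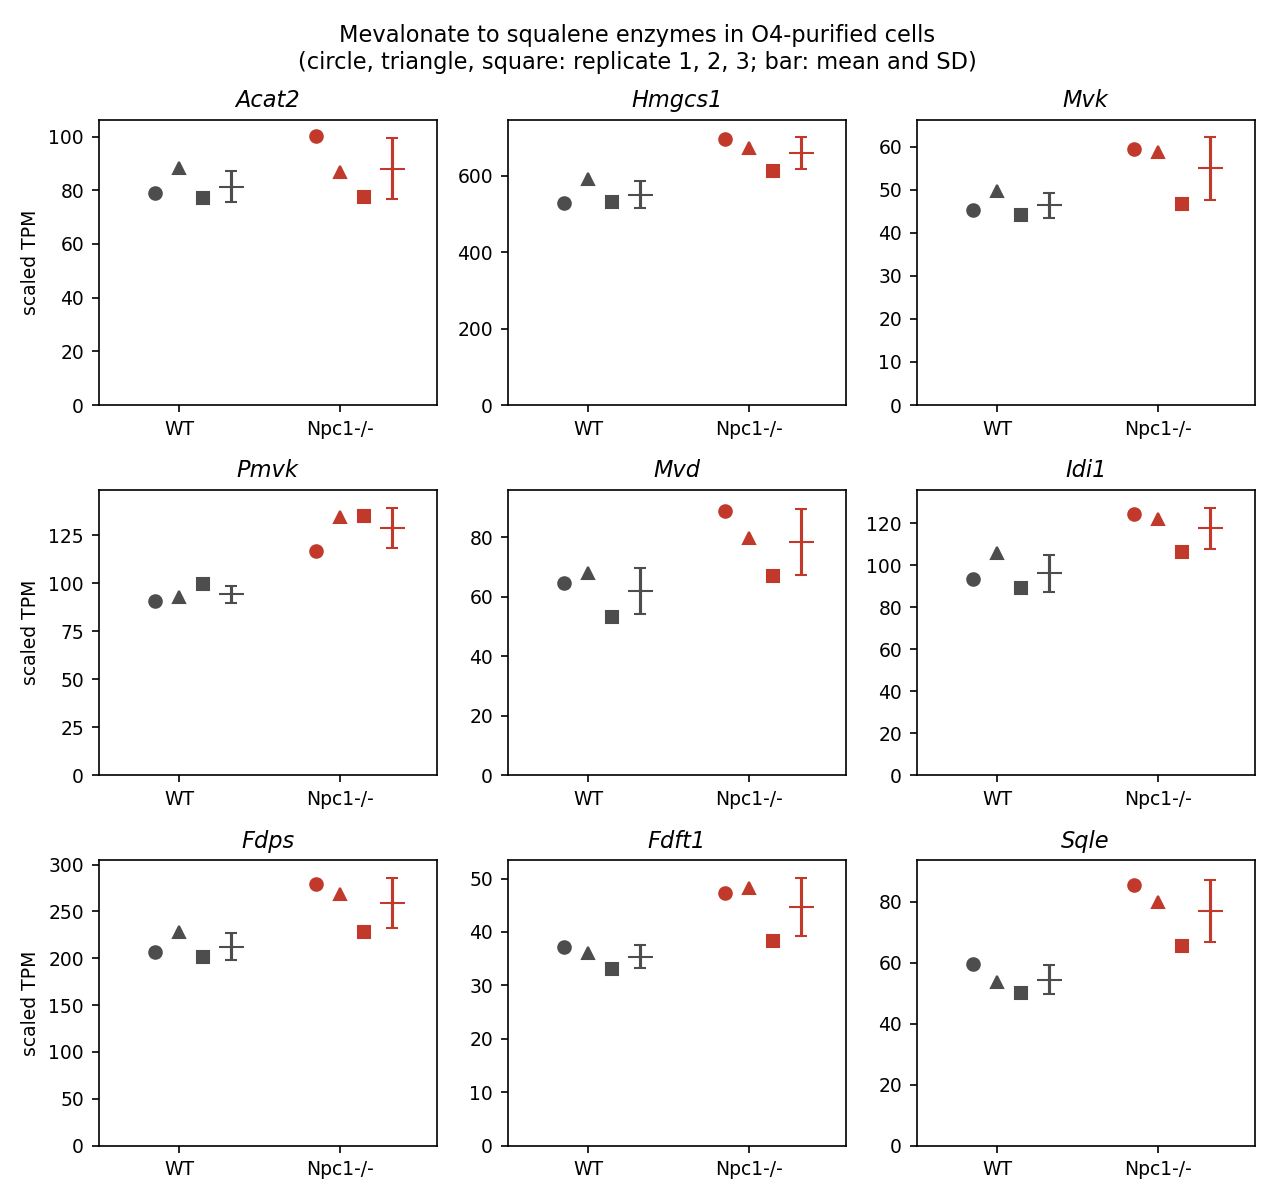
Scaled TPM (TPM divided by the size factor of the sample, linear axes from 0) of the 9 enzymes in order of the pathway. Each point is 1 mouse (circle, triangle and square for replicates 1, 2 and 3), and the bars are mean and SD. All 3 Npc1-/- points lie above all 3 WT points in *Hmgcs1*, *Pmvk*, *Idi1*, *Fdft1* and *Sqle*, and the groups overlap in the other 4 enzymes and, on TPM as deposited, in all 9.

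On scaled TPM the estimates of all 9 enzymes were above 0, at log2 fold changes of 0.11 to 0.49, whereas 7 of them were below 0 on TPM as deposited. Across all genes 51.0% of estimates were above 0 on scaled TPM. None of the 9 passed the test in limma, for which a gene had to move by at least 0.1 on the log2 scale with an adjusted p below 0.05, with or without its mean-variance trend or with robust estimation. Of all 15245 genes tested 0.813% passed, and 0.400% passed as higher in Npc1-/- samples. At an unadjusted p below 0.05, 6 of the 9 were higher (*Pmvk*, *Mvd*, *Idi1*, *Fdps*, *Fdft1* and *Sqle*), where 10.6% of all genes were. At an adjusted p below 0.1 this held for 2, *Pmvk* and *Sqle*, and for 3.82% of all genes. In 5 of the 9 every Npc1-/- sample was above every WT sample, which held for 13.3% of all genes. The median log2 fold change was 0.29 for the enzymes and 0.0081 for all genes tested. With 3 samples against 3, an exact two-sided permutation test has 20 arrangements and cannot give a p below 0.1. It gave 0.1 for the 5 enzymes whose groups did not overlap.

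*Acat2*, the cytosolic thiolase that joins acetyl-CoA units to acetoacetyl-CoA, had the smallest estimate of the 9 on scaled TPM. Its scaled TPM was 78.9, 88.1 and 77.1 in WT replicates 1, 2 and 3 and 100.004, 86.7 and 77.4 in Npc1-/- replicates 1, 2 and 3. Npc1-/- replicate 1 was highest, and the other samples of both genotypes were mixed. The log2 fold change was 0.11 (95% interval −0.17 to 0.38, limma adjusted p = 0.651). On TPM as deposited it was −0.26, the largest absolute estimate of the 9 on that scale (adjusted p = 0.438).

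*Hmgcs1* encodes the cytosolic HMG-CoA synthase, which adds a further acetyl group to acetoacetyl-CoA. It had 529, 591 and 531 scaled TPM in WT and 695, 671 and 613 in Npc1-/- samples. All Npc1-/- samples were above the highest WT sample, although replicate 3 exceeded it by less than the WT samples differed among themselves. The log2 fold change was 0.26 (95% interval −0.0014 to 0.52, limma adjusted p = 0.227), and it was −0.11 on TPM as deposited and −0.073 after quantile normalization.

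Mevalonate is activated by the kinases encoded by *Mvk* and *Pmvk* and then decarboxylated to isopentenyl diphosphate by the product of *Mvd*. Scaled TPM of *Mvk* was 45.3, 49.7 and 44.2 in WT and 59.4, 58.8 and 46.6 in Npc1-/- samples. Npc1-/- replicate 3 lay within the WT range and the other Npc1-/- samples above it, and the log2 fold change was 0.23 (95% interval −0.042 to 0.51, limma adjusted p = 0.299). *Mvd* was 64.7, 68.0 and 53.3 in WT and 88.9, 79.9 and 66.9 in Npc1-/- samples, so that replicate 3 again lay within the WT range. Its log2 fold change was 0.34 (95% interval 0.0097 to 0.66, limma adjusted p = 0.213).

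*Pmvk* had the smallest adjusted p of the 9. It was 90.9, 93.0 and 99.5 scaled TPM in WT and 117, 135 and 135 in Npc1-/- samples, with a clear gap between the groups. The log2 fold change was 0.44 (95% interval 0.22 to 0.67, limma adjusted p = 0.0621). Among the 9150 genes with a mean of at least 5 TPM the adjusted p was 0.0498, the single member past the threshold there, where 1.91% of genes were called higher. Over the other alternatives without the replicate block, its adjusted p was above 0.05. On TPM as deposited, WT samples had 118, 103 and 103 TPM and Npc1-/- samples 129, 115 and 98.1 TPM, so the groups overlapped, at a log2 fold change of 0.072.

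*Idi1* encodes the isomerase that turns isopentenyl diphosphate into dimethylallyl diphosphate, and *Fdps* the synthase that joins these units into farnesyl diphosphate. *Idi1* was 93.4, 106 and 89.1 scaled TPM in WT and 124, 122 and 106 in Npc1-/- samples. The groups were separate, but WT replicate 2 and Npc1-/- replicate 3 nearly met, and the log2 fold change was 0.29 (95% interval 0.039 to 0.54, limma adjusted p = 0.170). *Fdps* was 207, 229 and 202 in WT and 279, 269 and 228 in Npc1-/- samples, where the same pair of samples overlapped. The log2 fold change of *Fdps* was 0.28 (95% interval 0.018 to 0.55, limma adjusted p = 0.199).

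Farnesyl diphosphate is committed to sterols by squalene synthase, the product of *Fdft1*. Its scaled TPM was 37.2, 36.0 and 33.0 in WT and 47.3, 48.2 and 38.4 in Npc1-/- samples. The groups were separate by a small margin, set by Npc1-/- replicate 3, and the log2 fold change was 0.32 (95% interval 0.059 to 0.59, limma adjusted p = 0.151). *Sqle* encodes squalene epoxidase, which adds the first oxygen to squalene and is a control point of the pathway. It had the largest estimate of the 9, with 59.8, 53.6 and 50.2 scaled TPM in WT and 85.5, 80.0 and 65.7 in Npc1-/- samples. The lowest Npc1-/- sample was above the highest WT sample, and the mean was 41.4% higher, a log2 fold change of 0.49 (95% interval 0.20 to 0.78, limma adjusted p = 0.0812). Without Npc1-/- replicate 3 the log2 fold change was 0.60 and passed the test (adjusted p = 0.0448), where 0.710% of all genes were called higher, and over the other single samples left out the adjusted p was as high as 0.257. On TPM as deposited, *Sqle* was 77.4, 59.3 and 52.2 TPM in WT and 94.2, 68.4 and 47.7 TPM in Npc1-/- samples, and the groups overlapped, at a log2 fold change of 0.12.

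Every estimate depends on what is held constant between samples. On TPM as deposited, whose total is the same in every sample, the median log2 fold change was −0.33 over all genes tested and −0.082 over the 9 enzymes. There 2 of the 9 estimates were above 0 (*Pmvk* and *Sqle*), as were those of 14.0% of all genes, and no group of Npc1-/- samples lay wholly above WT (2.58% of all genes). Relative to the median of all genes the 9 enzymes lay 0.062 (*Acat2*) to 0.45 (*Sqle*) higher on that scale. With TPM rescaled after leaving out the 10 most abundant genes, 8 of the 9 estimates were above 0, *Acat2* at −0.12 being the exception, and the median was 0.058 against −0.21 over all genes. That rescaling was chosen after seeing the data. Quantile normalization gave a median of 0.18, with *Acat2* (−0.0081) and *Hmgcs1* (−0.073) below 0. The ranking of the enzymes by estimate had *Sqle* and *Pmvk* first under all 4 scalings.

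**Figure D2:**
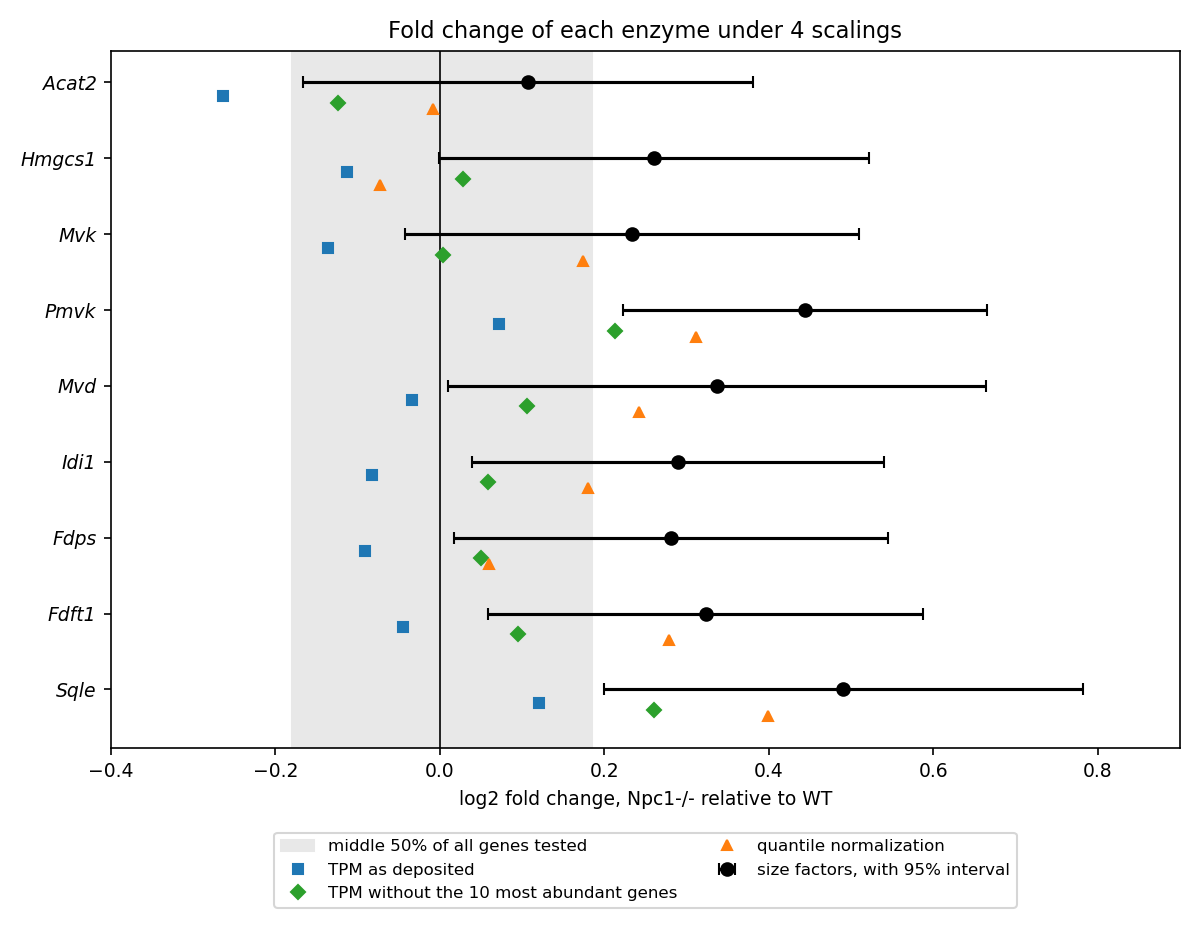
Log2 fold change (Npc1-/- relative to WT) of the 9 enzymes under 4 scalings. Circles with 95% intervals are size-factor-scaled TPM, squares TPM as deposited, diamonds TPM without the 10 most abundant genes, triangles quantile normalization, and the band holds the middle 50% of all genes tested on scaled TPM. All circles lie above 0, whereas 7 of the 9 squares, 1 diamond and 2 triangles lie below it.

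Ratios between the 9 enzymes within a sample do not depend on a scaling that divides each sample by a single factor, although they do change under quantile normalization. Each enzyme's log2 scaled TPM was therefore set against the mean of the 9 in the same sample. *Acat2* lay 0.22, 0.14 and 0.18 below that mean in WT and 0.29, 0.45 and 0.40 below it in Npc1-/- samples, so its groups were separate. It was the one enzyme of the 9 whose groups did not overlap on this measure, with a difference of −0.20 (exact permutation p = 0.1, the smallest possible). Groups are separate, in either direction, in a share of 0.1 of the arrangements of the samples, and 1 of 9 enzymes is near that share. The deviation of *Sqle* differed by 0.18 and that of *Pmvk* by 0.14, with overlapping groups. The remaining 6 differed by −0.074 to 0.030, and their ratios to the pathway mean overlapped between genotypes.

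**Figure D3:**
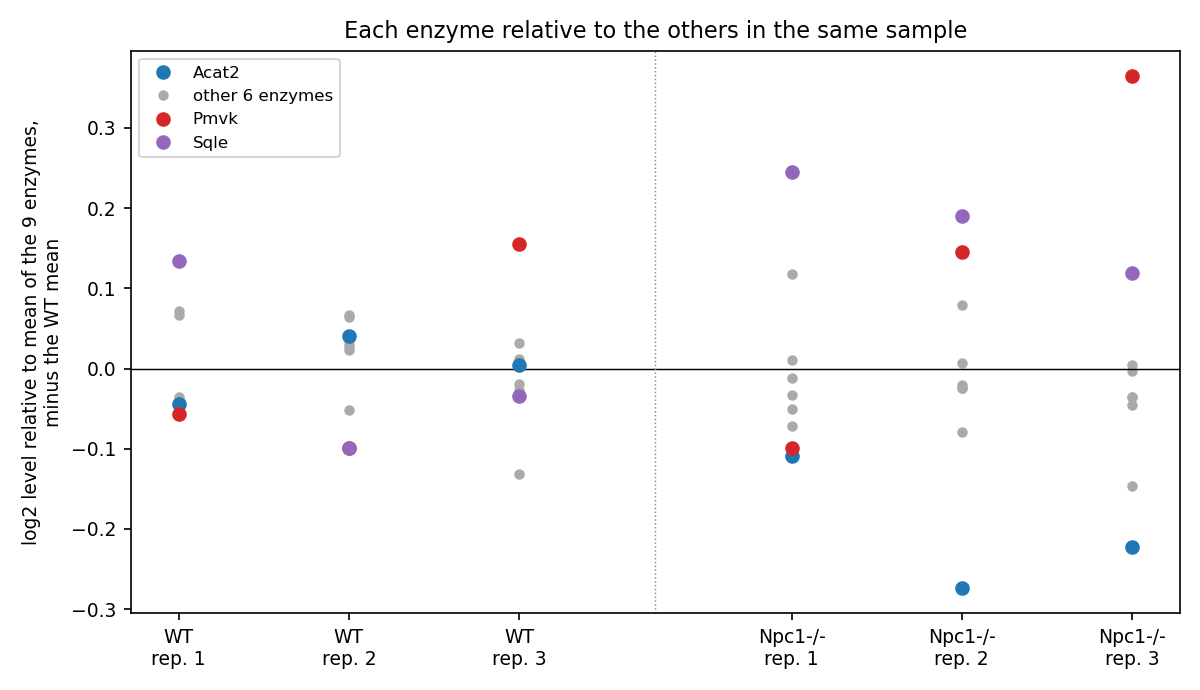
Deviation of each enzyme's log2 scaled TPM from the mean of the 9 enzymes in the same sample, with the mean of the WT samples set to 0 for each enzyme. Each point is 1 mouse. *Acat2* is lower in all 3 Npc1-/- samples than in all 3 WT samples, and the other 8 overlap.

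After the mean of each genotype was removed, 8 of the enzymes correlated positively with each other and *Pmvk* correlated negatively with them. The Pearson correlation over the 6 samples was 0.54 to 0.98 in the 28 pairs without *Pmvk* and −0.81 to −0.53 in the 8 pairs with it. All 6 points come from the same libraries and share each library's size factor. In WT samples the 8 did not share an order. *Hmgcs1* was highest in replicate 2 (591 scaled TPM), whereas *Sqle* (59.8) and *Fdft1* (37.2) were highest in replicate 1. In Npc1-/- samples replicate 3 was lowest for the 8 other enzymes on scaled TPM. For *Pmvk*, Npc1-/- replicates 2 and 3 were nearly equal there (134.7 and 135.1) and replicate 1 was lowest (117). On TPM as deposited Npc1-/- replicate 3 was lowest of the group for *Pmvk* as well, at 98.1 TPM. *Pmvk* has the shortest transcript of the 9, 1194 bases at its longest against a median of 2953 for the 9 enzymes and 3189 for all genes tested. Genes with shorter transcripts tended to have higher log2 fold changes, with a Spearman correlation between length and log2 fold change of −0.27 over 15221 genes. Once a smooth curve on length was removed in each sample, the log2 fold change of *Pmvk* was 0.31 and that of *Sqle* 0.53, and the correlations of *Pmvk* with the other enzymes were −0.96 to −0.66. The curve removes the trend over all genes, and the part of transcript length in the pattern of *Pmvk* was not tested.

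Several members share sequence or position with other genes, and the counting behind TPM could divide fragments among them. On GRCm38 (GENCODE M21), *Acat2* lies on chromosome 17 from 12942890 to 12960747 and shares 43.7% of its 31-base words with *Acat3*, which was 0.28 to 0.66 TPM. *Idi1* lies on chromosome 13 from 8885501 to 8892451 and shares 18.4% with the pseudogene *Gm13502*, which was 8.02 to 20.4 TPM. With 2 pseudogene copies added, the log2 fold change of *Idi1* was 0.28. *Fdps* lies on chromosome 3 from 89093588 to 89101959 and shares 24.6% with *Gm43738*, a gene on the same strand that overlaps it, at no more than 0.18 TPM. *Fdft1* lies on chromosome 14 from 63145150 to 63179578, and 774 bases of it overlap *Ctsb* on the opposite strand, which was 93.3 to 167 TPM. Whether the counting used strand is not given in the sources used here. *Hmgcs1* (chromosome 13, 119690379 to 119708260), *Mvk* (chromosome 5, 114444269 to 114460591), *Pmvk* (chromosome 3, 89454541 to 89469013), *Mvd* (chromosome 8, 122433601 to 122443422) and *Sqle* (chromosome 15, 59315077 to 59331192) shared less than 5% of such words with any other gene. *Hmgcs1* and *Mvd* overlap the annotated genes *Gm48342* (at most 0.26 TPM) and *Gm20388* (listed at 0 in all samples) on the opposite strand.

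Of the 10 enzymes after squalene epoxide, none passed the test in limma. The median log2 fold change of these 10 was 0.32 (0.19 to 0.53), and all 10 estimates were above 0 on scaled TPM and 4 were on TPM as deposited. At an unadjusted p below 0.05 in limma, 8 were higher, where 10.6% of all genes were. In 8 every Npc1-/- sample was above every WT sample on scaled TPM, which held for 13.3% of all genes. On TPM as deposited the groups of all 10 overlapped. The summed scaled TPM, relative to its WT mean, was 111% to 137% in Npc1-/- samples for these later enzymes and 112% to 129% for the 9 earlier ones.

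Among 10 genes of SREBP control and sterol uptake none passed the test in limma, 1 was higher at an unadjusted p below 0.05, and the median was −0.0052. That gene was *Insig1*, a known SREBP-2 target that encodes a sterol-regulated retention protein of the endoplasmic reticulum. It had a log2 fold change of 0.53 (limma adjusted p = 0.0602), with groups that did not overlap on scaled TPM and overlapped on TPM as deposited. For *Srebf2* itself, which encodes SREBP-2, the groups overlapped at a log2 fold change of 0.15. None of 6 genes for the turnover of the pathway's enzymes passed the test in limma or had an unadjusted p below 0.05, and their median was −0.088. None of 7 genes for acetyl-CoA supply passed it, and 1 was higher at an unadjusted p below 0.05, *Acss2*, the cytosolic acetyl-CoA synthetase (log2 fold change 0.39, limma adjusted p = 0.0567). All 7 estimates were above 0 on scaled TPM, with a median of 0.21, and 1 was above 0 on TPM as deposited.

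Farnesyl diphosphate, the product of FDPS, also feeds protein prenylation, dolichol and ubiquinone. Of 14 genes of isoprenoid use, not all of them in these branches, 1 was called, *Fntb*, which encodes the beta subunit of protein farnesyltransferase. It was 42.1, 45.9 and 46.2 scaled TPM in WT and 76.9, 82.9 and 87.8 in Npc1-/- samples, a log2 fold change of 0.88 (95% interval 0.67 to 1.08, limma adjusted p = 0.0172). The groups were also separate on TPM as deposited, where *Fntb* did not pass the test (log2 fold change 0.51, adjusted p = 0.109). With single samples left out its adjusted p was 0.0244 to 0.142, above the threshold without any 1 of the WT samples or without Npc1-/- replicate 2. The gene overlaps *Churc1* on the same strand, so fragments of both may be divided between them. The median of the 14 was 0.039. Of the members' paralogs, mitochondrial *Acat1* was at −0.013 with overlapping groups, and *Acat3* and *Idi2* were too low to be tested.

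**Figure D4:**
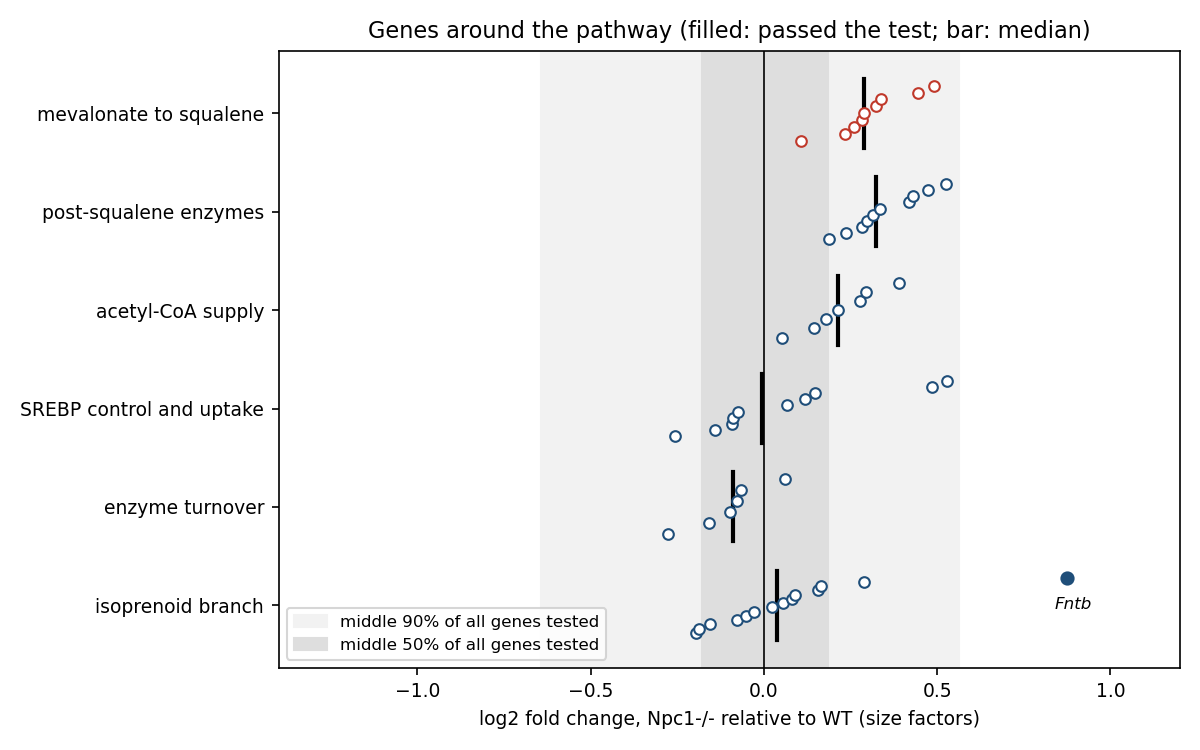
Log2 fold change (Npc1-/- relative to WT, scaled TPM) of each gene in the 9 enzymes and in the lists of genes around them. Each point is 1 gene, filled where it passed the test, the bar is the median of the list, and the shaded bands hold the middle 50% and 90% of all genes tested. The 9 enzymes and the 10 later enzymes lie above 0 on scaled TPM (7 and 6 of them lie below 0 on TPM as deposited), and *Fntb* is the filled point.

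The levels of markers of other cells moved with the genotype as well. Relative to the WT mean of the list, the summed scaled TPM of 6 microglia markers was 80.4% to 126% in WT and 37.1% to 68.5% in Npc1-/- samples, and that of 4 endothelium markers was 80.7% to 117% and 57.2% to 69.0%. All markers on both lists had lower values in every Npc1-/- sample than in every WT sample. The share of all genes lying wholly below WT is not given here. On scaled TPM 1 of the 10, *Tmem119*, passed the test, where 63 of all 15245 genes were called lower. On TPM as deposited all 10 passed, where 870 of all genes were called lower. The sum of 8 neuron markers was 82.0% to 111% in WT and 128% to 166% in Npc1-/- samples, and 2 of them, *Nefl* and *Nefm*, passed as higher. The groups of the other 6 overlapped on scaled TPM, at log2 fold changes of 0.036 to 0.44. All 8 estimates were above 0 on scaled TPM, with a median of 0.32. On TPM as deposited 3 of the 8 estimates were above 0 and 1, *Nefl*, passed. The 3 calls on scaled TPM among these markers also passed without Npc1-/- replicate 3 and missed the threshold without any 1 of the other samples. The sum of 6 astrocyte markers was 95.7% to 103% in WT and 67.4% to 132% in Npc1-/- samples. Of these 6, 4 had lower values in every Npc1-/- sample than in every WT sample, with log2 fold changes of −0.81 to −0.23, 1 was higher in every Npc1-/- sample (1.01), and none passed the test in limma, with 3 at an unadjusted p below 0.05. The sum of 12 oligodendrocyte lineage markers, of which *Mbp* makes up most, was 80.0% to 111% in WT and 101% to 193% in Npc1-/- samples, with no marker passing the test and a median log2 fold change of 0.16, which was −0.21 on TPM as deposited and −0.084 after quantile normalization. No marker was at 0 in any sample. The part of these markers in the values of the 9 enzymes was not tested.

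**Figure D5:**
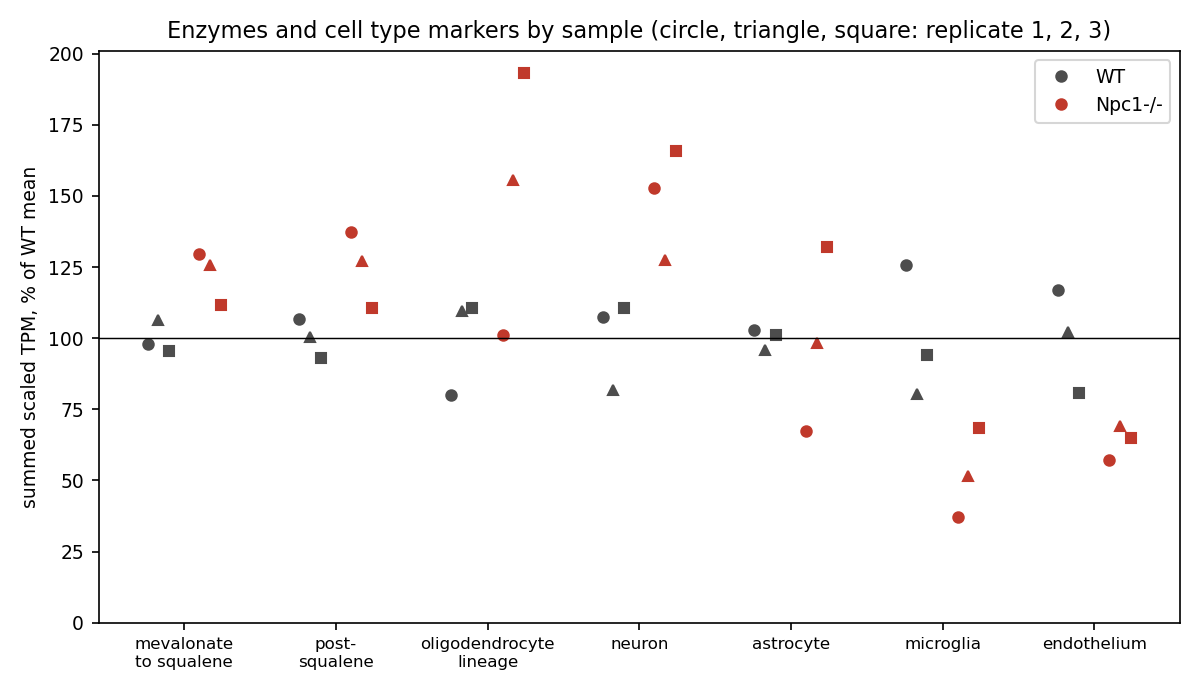
Summed scaled TPM of the 9 enzymes, of the later enzymes and of cell type marker lists, as a percent of the mean of the WT samples. Each point is 1 mouse, and the line marks 100%. The enzymes are at 112% to 129% in Npc1-/- samples, microglia and endothelium sums are below the WT range, and the neuron sum is above it. In 6 of the 8 neuron markers taken singly, the groups overlap.

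The genes whose pattern over the 6 samples was most like that of the 9 enzymes were sought among 9141 genes with a mean of at least 5 TPM. By Pearson correlation with the mean of the enzymes' centred log2 scaled TPM, they were *Lrrc4b* (0.996), *Xab2* (0.995), *Pcbp4* (0.994), *Slc37a3* (0.994) and *Ncald* (0.991). Lanosterol demethylase, *Cyp51*, was seventh, at 0.988. These are the highest of many correlations over 6 samples that share their size factors, given as a description.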

How the data were processed

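RNA-seq of O4-microbead-purified cells from 3 WT and 3 Npc1-/- mice was analysed, with groups and replicate numbers taken from the sample labels. The authors deposited TPM and FPKM (fragments per kilobase of transcript, scaled to library size) per gene, and no counts were used here. The deposited FPKM are the TPM times 1 factor per sample, to within 0.0224%. The submitters' processing notes name cutadapt 2.3, FastQC 0.11.8, STAR 2.7.8a, RSEM 1.3.3, MultiQC 1.7 and GRCm38, whereas the methods name bbduk, STAR and featureCounts. Annotation release and strand setting are not given in the sources used here.

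TPM was divided by median-of-ratios size factors from 18690 genes and taken to log2 with a pseudocount of 0.5, so fold changes are on that scale. Genes with a mean of at least 0.5 TPM (15245) went into limma 3.58.1 under R 4.3.3 (eBayes with trend, genotype as the only term) and p-values were adjusted by Benjamini-Hochberg over all of them. Calls needed an adjusted p below 0.05 together with a shift of 0.1 or more on the log2 scale, the thresholds of the methods. The fit was checked on simulated data. Intervals are 95% intervals from limma, and depth was found from FPKM steps (80.6% to 84.0% of values within 0.15 of a whole fragment). Each sample is 1 mouse, so p-values measure the spread between mice.

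Genes named were the 9 enzymes, *Npc1*, the paralogs, marker genes, the 5 genes of most similar pattern and, from the lists around the pathway, those with the largest fold changes. *Srebf2*, *Cyp51*, genes overlapping or resembling a named gene, *Xist* and *Ddx3y* were named outside that rule or after their values were seen. Members and lists were chosen with earlier results of these data known. Some genes of the lists are not reported here and were left out of their counts. Alternatives were other scalings, pseudocounts of 0.1 and 1, no filter, a mean of at least 5 TPM, limma without trend or with robust estimation, curves on length and GC content (span 0.3), the replicate block and each sample left out.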

Additional observations from a re-analysis of the deposited data

How the results depend on the processing

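Over 20 alternative settings and the 9 enzymes, 158 estimates kept their direction and side of the threshold, 12 passed it and 10 reversed. On TPM as deposited the log2 fold changes were −0.26 for *Acat2*, −0.11 for *Hmgcs1*, −0.14 for *Mvk*, −0.034 for *Mvd*, −0.082 for *Idi1*, −0.091 for *Fdps* and −0.045 for *Fdft1*, with a median over the 9 of −0.082. Without the 10 most abundant genes, a setting chosen after seeing the data, *Acat2* was at −0.12 and the median was 0.058. Quantile normalization put *Acat2* at −0.0081 and *Hmgcs1* at −0.073. Leaving out each sample in turn left every estimate above 0, with medians of 0.23 to 0.37 and 0 to 1 enzyme called, the 1 being *Sqle* without Npc1-/- replicate 3. A mean of at least 5 TPM called 1 (*Pmvk*), and an adjusted p below 0.1 would call 2 (*Pmvk* and *Sqle*), where 3.82% of all genes were higher at that limit.

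With the replicate number as a block, 4 enzymes were called, *Pmvk* (adjusted p = 0.0219), *Mvd* (0.0397), *Fdft1* (0.0446) and *Sqle* (0.0204), where 7.50% of all genes were called higher. With the block and a length curve, or length and GC curves, 3 were called (*Pmvk*, *Fdft1* and *Sqle*), where 5.83% and 5.90% of all genes were called higher. In the other lists the block called 5 of the 10 later enzymes, 3 acetyl-CoA supply genes, 1 gene of SREBP control and uptake, and 2 oligodendrocyte lineage, 3 astrocyte, 2 microglia and 3 endothelium markers, and left the counts of the remaining lists as they were. Genes called higher and lower over the whole table numbered 61 and 63 without the block and 1143 and 868 with it. The labels do not say that a number marks a litter or day, and the correlations between samples of the same number (deviations from the group means) were 0.414, 0.0602 and 0.326, so they were not taken as pairs, although each sample correlated best with its own number. Among all genes, 54 and 870 were called on TPM as deposited, 115 and 880 without the 10 most abundant genes, 92 and 133 after quantile normalization, 14 and 7 without a filter, 175 and 272 at a mean of at least 5 TPM, 26 and 16 by limma without trend and 109 and 377 without Npc1-/- replicate 3. Without any other single sample 3 to 16 were called higher and 1 to 6 lower. The cause of the reversals between scalings was not tested.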
